A study of Mus musculus with 36 samples.

Results

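Timing transition stretches were taken from 3 domain maps of mouse cells as the regions of middle (M) replication timing that lay between 1 early (E) and 1 late (L) domain. Members were selected on the deposited state numbers alone, as autosomal M domains whose touching neighbours were 1 E and 1 L domain. There were 660 such stretches among 2468 autosomal domains of CH12 shLacZ cells, 680 among 2490 of primary B WT cells and 493 among 2070 of the map named MEF WT. That made 1833 stretches in all. CH12 is a mouse B lymphoma cell line, and the shLacZ cells had normal Rif1, were infected with a lentivirus carrying a control hairpin against LacZ, and were cultured with IL4, CD40 and TGF beta. The primary B WT cells were activated splenic B cells of Rif1+/+ mice, and the growth protocol attached to their labels is the one for CH12 cells. Each of these groups had 4 Repli-seq libraries, from early and late S phase cells that had taken up BrdU for 2 h. MEF is the study's abbreviation for mouse embryonic fibroblasts, but no sample label was tied to that map, so its libraries and their number are not known here. Of 36 libraries in 7 groups, those with Rif1 deleted or Mcm6 depleted gave no map used here.

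S phase copies the genome in a reproducible order, with gene-rich, open chromatin generally early and gene-poor chromatin late. Between early and late domains lie timing transition regions, in which the mean time of replication changes steadily along the chromosome, and which are often described as copied by forks that leave the early domain and travel toward the late one. RIF1, the protein that the study examined, is known to act on the timing of origin firing through protein phosphatase 1. Which positions change from early to late is known to differ between cell types, so the question addressed here was where the transitions lay in each map, and what sequence and genes they held.

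The authors pooled the replicates ahead of state calling, which left a single map per cell type, and no test between maps was possible. Intervals given with shares (Wilson), medians (exact order statistics) and gene densities (exact Poisson) are at 95% and count only the stretches, bins or genes within a map. Neighbouring bins and genes are not independent, which makes these intervals too narrow. Read depth is unknown, and the maps hold states without timing values. An E domain never touched an L domain in any map (0 of these junctions in each), so every change between early and late passed through an M domain. As a check of the state names, protein-coding gene starts stood at 18.9 per Mb in E and 3.79 per Mb in L domains of CH12, at 17.7 and 2.93 in primary B, and at 16.1 and 3.34 in the MEF map.

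The 2 stretches that lay most nearly at the same place in all 3 maps are shown first, with 1 window from each end. They are followed by one chosen because a single gene contained it in all 3 maps. The windows are examples of the sequence at early and late ends. Each window is 200 bases of the mm9 (NCBIM37) plus strand with no annotated exon, chosen as close in GC content and CpG density to its 20 kb bin, with CpG sites in capitals. The stretch on chromosome 4 had its early side at the higher coordinate and held Prdm16 and Megf6. The interval common to the 3 maps was chr4:153140001-154060000, which is 920 kb, or 0.807 of the length that the 3 stretches covered together. The stretch on chromosome 7 had its early side at the lower coordinate and held Nlrp2 and vomeronasal receptor genes, with the interval chr7:5100001-5420000 in common (0.80 of the joint length). The last pair comes from chr4:127860001-128120000, the interval in common inside Csmd2 (0.65 of the joint length).

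chr4 early end, between genes, chr4:154042201-154042400: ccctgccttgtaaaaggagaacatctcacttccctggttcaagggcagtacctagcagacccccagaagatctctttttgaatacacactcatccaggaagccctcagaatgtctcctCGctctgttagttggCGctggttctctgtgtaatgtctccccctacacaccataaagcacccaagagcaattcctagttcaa
chr4 late end, between genes, chr4:153150101-153150300: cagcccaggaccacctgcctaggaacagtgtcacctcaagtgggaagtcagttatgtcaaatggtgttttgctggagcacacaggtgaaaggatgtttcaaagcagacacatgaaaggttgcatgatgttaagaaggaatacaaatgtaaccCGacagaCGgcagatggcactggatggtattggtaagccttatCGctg
chr7 early end, between genes, chr7:5105951-5106150: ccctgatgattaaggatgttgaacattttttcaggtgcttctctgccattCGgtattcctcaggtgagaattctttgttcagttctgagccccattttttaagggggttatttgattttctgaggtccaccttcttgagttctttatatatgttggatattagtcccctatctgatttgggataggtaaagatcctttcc
chr7 late end, between genes, chr7:5406551-5406750: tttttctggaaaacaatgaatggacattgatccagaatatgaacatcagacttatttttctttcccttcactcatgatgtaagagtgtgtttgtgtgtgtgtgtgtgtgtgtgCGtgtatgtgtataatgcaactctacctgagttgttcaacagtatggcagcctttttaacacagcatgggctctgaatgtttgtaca
Csmd2 early end, intron, chr4:128103301-128103500: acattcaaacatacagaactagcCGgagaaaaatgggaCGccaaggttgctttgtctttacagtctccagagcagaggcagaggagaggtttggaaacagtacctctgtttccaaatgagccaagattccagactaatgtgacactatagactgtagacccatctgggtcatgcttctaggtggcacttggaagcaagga
Csmd2 late end, intron, chr4:127870751-127870950: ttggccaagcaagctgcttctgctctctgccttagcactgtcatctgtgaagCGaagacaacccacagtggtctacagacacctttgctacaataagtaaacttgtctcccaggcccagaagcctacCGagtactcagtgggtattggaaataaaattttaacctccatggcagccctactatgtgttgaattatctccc

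The bins behind the chromosome 4 windows had 49.2% GC at the early end and 47.5% at the late end. On chromosome 7 these values were 39.7% and 38.7%, and in Csmd2 46.5% and 47.1%. Both ends of the chromosome 7 stretch were thus lower in GC than every end of the other stretches, and in Csmd2 the late end was the higher one. CpG sites did not follow GC in each bin, with 234 at the early and 310 at the late end on chromosome 4, 116 and 121 on chromosome 7, and 291 and 203 in Csmd2. The windows need not show such differences, as both Csmd2 windows hold 2 sites.

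Stretches were shortest in CH12 and longest in the MEF map. The median length was 300 kb in CH12 (interval 280 to 320), 380 kb in primary B (380 to 400) and 540 kb in the MEF map (500 to 600). CH12 lengths ran from 100 to 3620 kb, primary B lengths from 60 to 7340 kb and MEF lengths from 80 to 5240 kb. The order of the medians held on most chromosomes. The median was longer in primary B than in CH12 on 17 of 19 autosomes, longer in the MEF map than in CH12 on 19, and longer in the MEF map than in primary B on 18. The ratio track of the B cell maps was smoothed over a 300 kb span before states were called. In CH12, 48.2% of stretches (44.4 to 52.0) were shorter than that span, against 9.41% (7.44 to 11.8) in primary B and 1.83% (0.963 to 3.43) in the MEF map, for which no span is stated. What part smoothing, signal strength or the separate fit of each map had in the lengths was not tested.

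**Figure D1:**
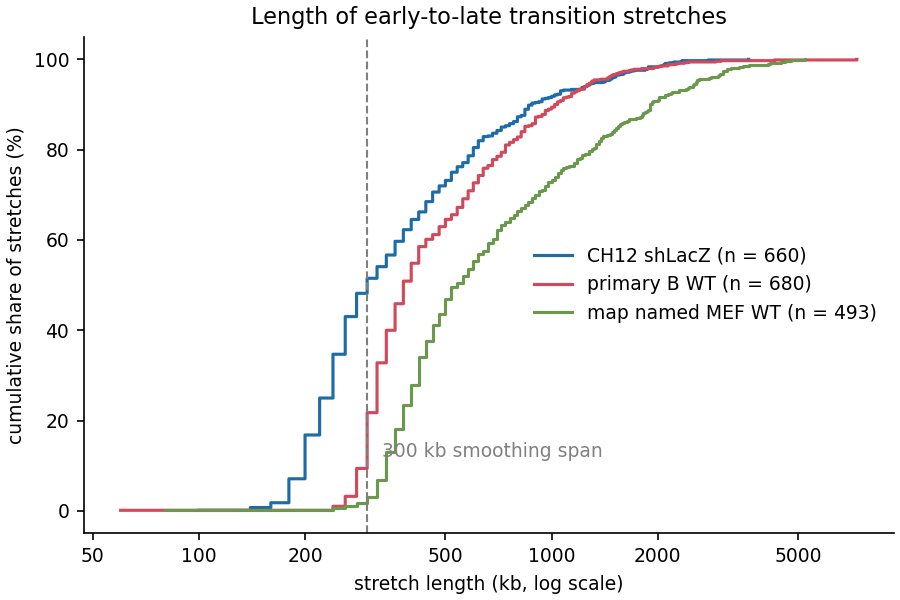
Cumulative share of stretches (%) by length in kb on a log axis, for 660 CH12 shLacZ, 680 primary B WT and 493 MEF WT stretches, with the 300 kb smoothing span as a dashed line. The 3 curves lie in order, with medians of 300, 380 and 540 kb, and the B cell curves meet above about 1000 kb.

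Long stretches made up the tail of each map. Lengths above 1000 kb were found for 8.18% of CH12, 10.6% of primary B and 26.8% of MEF stretches. The stretches covered 12.4% of CH12 bins with a state, 15.9% of primary B bins and 17.7% of MEF bins. They were 44.8%, 49.3% and 45.8% of all M bins in the same order, M domains at chromosome ends or gaps included. In Mb, the stretches covered 306 in CH12, 383 in primary B and 438 in the MEF map. Between 2 E domains, M domains covered 103, 195 and 290 Mb, and between 2 L domains 208, 176 and 161 Mb. Those at ends or gaps covered 65.1, 22.7 and 67.6 Mb. In primary B, other kinds took up the larger share only with these counted. Among autosomal M domains, CH12 had 199 between 2 E domains and 349 between 2 L domains, while primary B had 277 and 255 and the MEF map 309 and 207. M domains between 2 E domains had medians of 400, 560 and 740 kb in CH12, primary B and MEF, and those between 2 L domains 500, 560 and 600 kb. In each map these medians were longer than that of the transition stretches. A further 33, 39 and 33 M domains had a neighbour missing at a chromosome end or gap and were not members. Had neighbours up to 40 kb away been allowed, primary B would have had 682 stretches, and the other counts would have stayed the same.

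The early side lay at the lower coordinate, toward the centromere of these acrocentric chromosomes, in 327 of 660 CH12, 340 of 680 primary B and 245 of 493 MEF stretches. Near equality follows from the rule, since E and L domains must alternate along a chromosome wherever a stretch separates them. Medians by orientation were 320 and 300 kb in CH12, 380 and 380 kb in primary B, and 540 and 530 kb in the MEF map, with overlapping intervals. The E neighbour of a stretch had a median of 680 kb in CH12, 700 kb in primary B and 880 kb in the MEF map, and the L neighbour 1060, 940 and 960 kb. Stretch length and neighbour length were weakly related at most, with Spearman's rho between -0.18 and 0.01 over the stretches of a map.

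Stretches were spread over every autosome but not evenly. CH12 had from 1.75 per 10 Mb on chromosome 3 to 3.59 on chromosome 19, primary B from 2.19 on chromosome 11 to 3.55 on chromosome 9, and the MEF map from 1.28 on chromosome 14 to 2.64 on chromosome 2. Chromosome 2 had the largest covered share in CH12 (18.1% of bins) and in the MEF map (22.9%), and chromosome 13 in primary B (22.3%). Chromosome 15 was lowest in CH12, at 6.63%. On the X chromosome, which is outside the rule, CH12 had 34 such stretches and primary B 45, whereas the MEF map had 0. The MEF map gave the X chromosome 0 E domains, with 38.5% of its bins M and 61.5% L.

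Unknown bases of the assembly lay at some extremes of the length range. The longest primary B stretch, chr7:39020001-46360000, was 95.4% unknown bases and touched 2 protein-coding genes. The shortest CH12 and primary B stretches started at the same base, chr10:7240001, where 50.7% of the 100 kb and 83.5% of the 60 kb were unknown. The MEF map had a 240 kb stretch from that base, with 21.1% unknown. The shortest MEF stretch, chr4:147140001-147220000, was 80 kb with no unknown base and touched Zfp933 and Gm13157.

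Other long stretches held known sequence and many genes. The longest in CH12, chr2:174300001-177920000, was 3620 kb and touched 52 genes, among them Zfp831, a zinc finger gene, Edn3, which encodes endothelin 3, and Phactr3. The MEF map called 169 of its 181 bins L, and primary B called 138 M. Next came chr6:32000001-34780000, with Exoc4, a subunit of the exocyst, and Plxna4, a semaphorin receptor. The third, chr13:94040001-96380000, held Pde8b, a cyclic AMP phosphodiesterase, and Homer1, a synaptic scaffold, and the MEF map called 89 of its 117 bins E. The longest MEF stretches were chr19:20600001-25840000, with Trpm3, a cation channel, and Dock8, chr1:10040001-14820000, with Prex2 and Eya1, and chr1:77060001-81660000, with Epha4 and Pax3. Each of these was divided among all 3 states in both B cell maps.

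A primary B stretch lay over variable segments of the immunoglobulin heavy chain locus, which B cells rearrange to make antibody genes. It ran 3020 kb over chr12:114980001-118000000 and held 99 annotated immunoglobulin segments, with Ptprn2, Esyt2 and Vipr2 beyond them. CH12 called 98 of its 151 bins L and 53 M. The MEF map called 109 L, 33 M and 9 E. Since reads were placed on the reference, in which the locus is not rearranged, what part rearrangement had in the calls was not tested.

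In each pair of maps, a minority of stretches had a partner. Partners were defined as stretches of the same orientation with 50% reciprocal overlap. CH12 and primary B shared 249 partners, which were 37.7% of CH12 stretches (34.1 to 41.5) and 36.6% of primary B stretches (33.1 to 40.3). Primary B and MEF shared 177, or 26.0% and 35.9%, and CH12 and MEF shared 100, or 15.2% and 20.3%. Partners in both other maps were found for 9.24% of CH12 stretches (7.26 to 11.7). Others overlapped a stretch of the same orientation by less, 219 of the CH12 stretches in primary B and 185 in the MEF map, 219 of the primary B stretches in CH12 and 201 in the MEF map, and 180 of the MEF stretches in CH12 and 191 in primary B. With any overlap counted, 70.9% of CH12 stretches met a primary B one and 43.2% met a MEF one, and 55.6% of primary B stretches met a MEF one. With 80% reciprocal overlap required, 8.64% of CH12 stretches had a primary B partner.

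Over bins, 33.5% of the 120754 autosomal bins with a state in every map lay in a stretch in at least 1 map, and 2.27% in all 3. Bins in a stretch in CH12 were also in one in primary B in 44.9% of cases, while the share of all bins in a primary B stretch was 15.9%. For CH12 bins in the MEF map these shares were 29.2% against 18.1%, and for primary B bins in the MEF map 38.1% against 18.1%. Where stretches of a pair of maps coincided they nearly always pointed the same way, in 97.6% of bins for CH12 and primary B, 91.8% for CH12 and MEF, and 92.3% for primary B and MEF. Of 2739 bins in a stretch in all 3 maps, 2592 had a single orientation.

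What replaced a stretch depended on the direction of the comparison. Of CH12 stretches, 17 were wholly E in primary B and 2 wholly L, while of primary B stretches 1 was wholly E in CH12 and 63 were wholly L. Against the MEF map, 119 CH12 stretches were wholly E and 12 wholly L, and of MEF stretches 2 were wholly E in CH12 and 86 wholly L. Between primary B and MEF the counts were closer, with 44 primary B stretches wholly E and 29 wholly L in the MEF map, and 10 MEF stretches wholly E and 30 wholly L in primary B. The bins showed the same when each stretch was divided into 3 equal parts. In the early part of CH12 stretches, 44.8% of bins were E in primary B, and 14.8% were in the late part. In the late part of primary B stretches, 63.1% of bins were L in CH12, and 21.3% were in the early part. CH12 as a whole had 60169 of 123624 bins in the L state and primary B 46011 of 120754, and the part of this overall shift, or of how each map was fitted, was not tested.

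**Figure D2:**
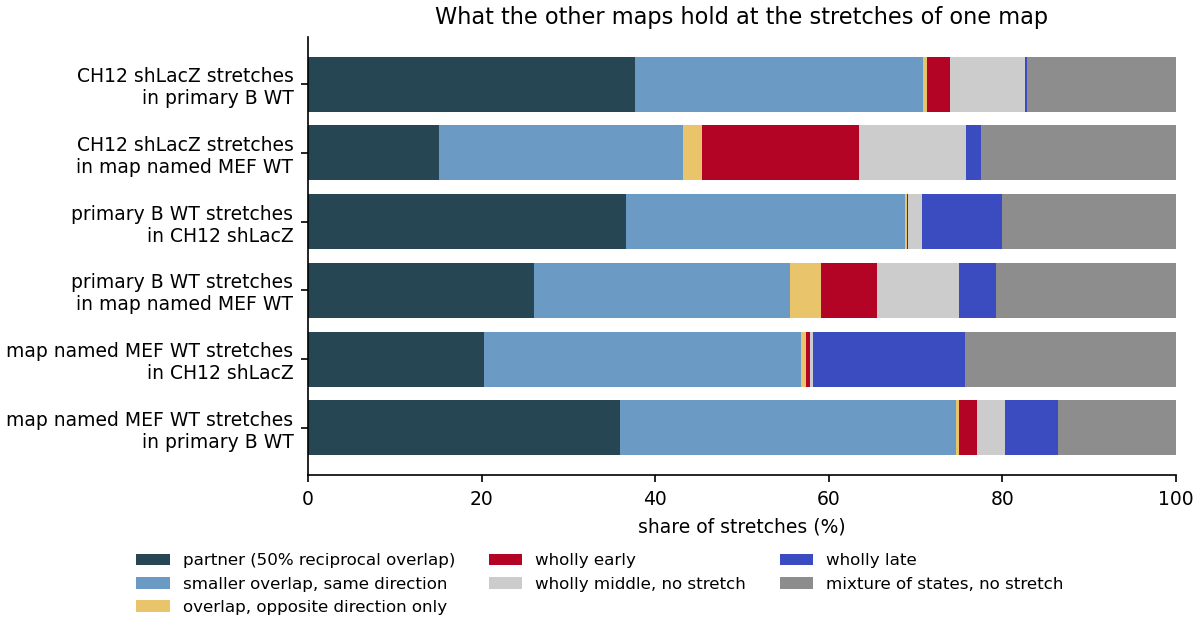
Stacked bars give the share of stretches (%) of 1 map that had a partner, overlapped a stretch by less, or met only E, M, L or mixed states in another map. Blue (wholly L) is widest for MEF and primary B stretches in CH12 (86 and 63 stretches), and red (wholly E) for CH12 stretches in the MEF map (119).

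Among partners, edges were displaced in a common direction between the B cell maps. From CH12 to primary B, the late edge moved toward the late side by a median of 80 kb (80 to 100), and 203 of 249 late edges moved that way against 33 that moved back. The early edge moved by a median of 40 kb (20 to 40), with 158 toward the late and 68 toward the early side. Both edges moved toward late in 139 pairs and both toward early in 17. The size of the late edge displacement depended on the definition of partners, with medians of 40 kb at 80% overlap and 140 kb for sole partners at any overlap. From CH12 to MEF, the late edge moved by a median of 80 kb (40 to 100) in 100 pairs, with 74 toward late. The early edge had a median of 0 kb (-20 to 40), with 48 each way. From primary B to MEF, the late edge moved by 40 kb (20 to 60), and the early edge had a median of -20 kb (-40 to 20). All steps are multiples of the 20 kb bin, and both edges fell at the same border in 2, 0 and 1 pairs.

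**Figure D3:**
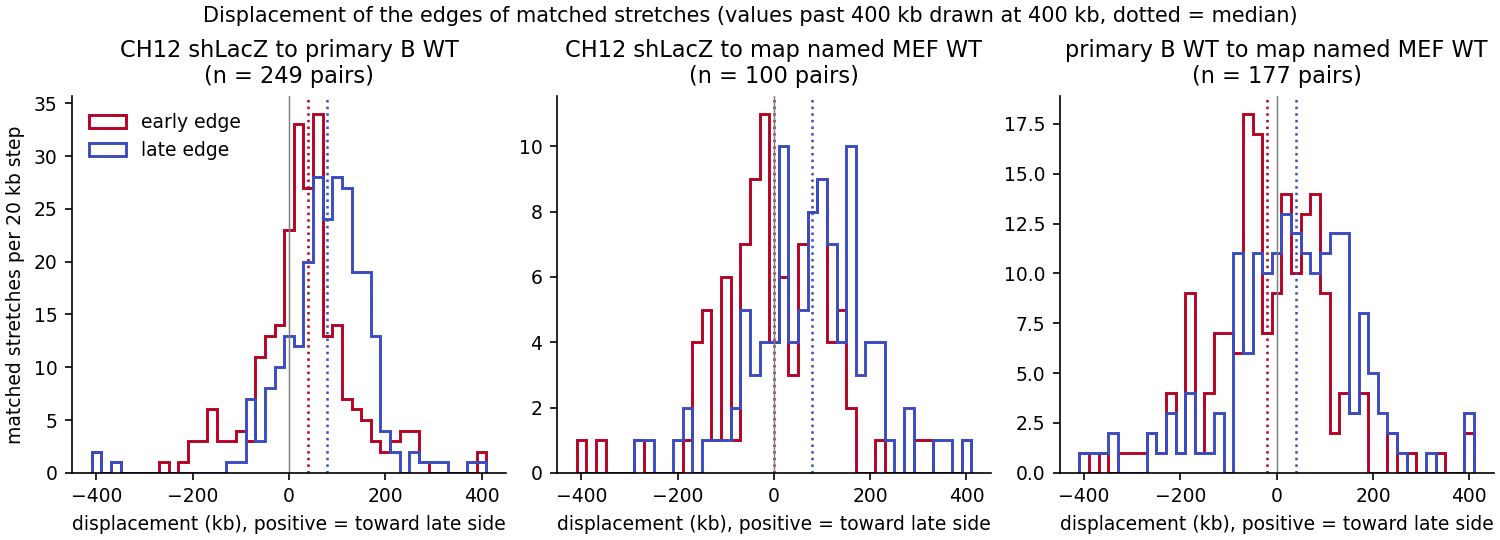
Histograms of the displacement (kb) of early (red) and late (blue) edges of partner stretches in 20 kb steps, with medians dotted and positive values toward the late side. For the 249 pairs of the B cell maps both medians lie above 0, at 40 kb for early and 80 kb for late edges.

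Partners were longer in the map whose stretches were longer overall. The second stretch of a pair was longer by a median of 60 kb (40 to 80) in primary B than in CH12, by 100 kb (60 to 120) in MEF than in CH12, and by 60 kb (40 to 80) in MEF than in primary B. It was longer in 179 of 249, 77 of 100 and 129 of 177 pairs. MEF stretches without a partner in primary B had a median of 710 kb (640 to 820), against 420 kb (400 to 440) for those with one. The reciprocal overlap that defines partners limits how far their lengths can differ, and so bounds the differences above. A MEF stretch much longer than any primary B stretch that it overlaps cannot have a partner. What part this rule had in the contrast was not tested.

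Early edges were found again more often than late edges. An early edge of CH12 lay within 100 kb of one of primary B in 41.1% of stretches (37.4 to 44.9), and a late edge in 25.8% (22.6 to 29.2). For CH12 against MEF these shares were 20.2% and 11.4%. For primary B against MEF they were 25.0% (21.9 to 28.4) and 20.4% (17.6 to 23.6), with overlapping intervals. When 200 kb was allowed, CH12 and primary B came closer, at 52.7% and 48.2%.

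Some stretches of 1 B cell map were far from any in the other. The CH12 stretches chr16:97360001-98200000 and chr16:96360001-97080000 both touched Dscam, a neuronal adhesion gene, and lay 363 and 313 bins of 20 kb from the nearest primary B stretch. Primary B called them M in 36 of 42 and 28 of 36 bins and E in the rest. The third, chr11:99820001-100020000, held keratin genes such as Krt19 and lay wholly in M in primary B. The furthest primary B stretches, chr16:75420001-75740000 with Lipi and Rbm11 and chr16:76240001-77140000 with Usp25 and Nrip1, were wholly L in CH12. The third, chr3:35240001-35540000, touched no protein-coding gene and was wholly M in CH12. Of the best shared stretches, the third was chr15:86080001-86600000 in CH12, and Tbc1d22a was the gene that all 3 maps touched there.

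GC content fell from the early to the late side of the stretches in every map. In CH12 the early part had 43.4% ± 2.78 GC (SD, n = 660 stretches) and the late part 42.4% ± 2.55. In primary B these were 42.6% ± 2.80 and 41.6% ± 2.56 (n = 680), and in the MEF map 42.4% ± 2.60 (n = 493) and 40.9% ± 2.39 (n = 492). The spread between stretches exceeded the difference, but within a stretch the early part was higher in 70.5% of CH12 (66.9 to 73.8), 74.6% of primary B (71.2 to 77.7) and 77.2% of MEF stretches (73.3 to 80.7). The median difference was 1.05, 1.03 and 1.55 percentage points. It was above 0 on 19 of 19 autosomes in each map. CpG sites, where vertebrate DNA is methylated, fell likewise from 9.71 ± 2.72 to 8.42 ± 2.39 per kb in CH12, from 9.00 ± 2.63 to 7.84 ± 2.41 in primary B and from 8.78 ± 2.27 to 7.22 ± 2.01 in the MEF map.

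The fall went on outside the stretches. In CH12, GC content was 44.7% in bins centred 390 kb inside the E domain, 43.6% next to the early edge, 42.2% inside the late edge, and 41.0% at 390 kb inside the L domain. In primary B these were 44.4%, 42.9%, 41.2% and 40.1%, and in the MEF map 44.7%, 43.0%, 40.4% and 39.4%. The values at 390 kb rest on fewer bins than those at the edges. In CH12 there were 483 on the early and 544 on the late side, against 660 at each edge. These counts were 520 and 541 against 680 in primary B, and 387 and 416 against 493 in the MEF map. What part this change of set had in the fall was not tested. Over all their bins, stretches lay between their neighbours, with 43.1%, 42.2% and 41.6% GC in CH12, primary B and MEF. E domains had 45.8%, 45.3% and 45.3%, and L domains 39.5%, 39.0% and 38.4%. M domains between 2 E domains were higher than the stretches in GC, at 44.1%, 43.4% and 42.4%, and those between 2 L domains lower, at 42.1%, 41.5% and 40.2%.

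**Figure D4:**
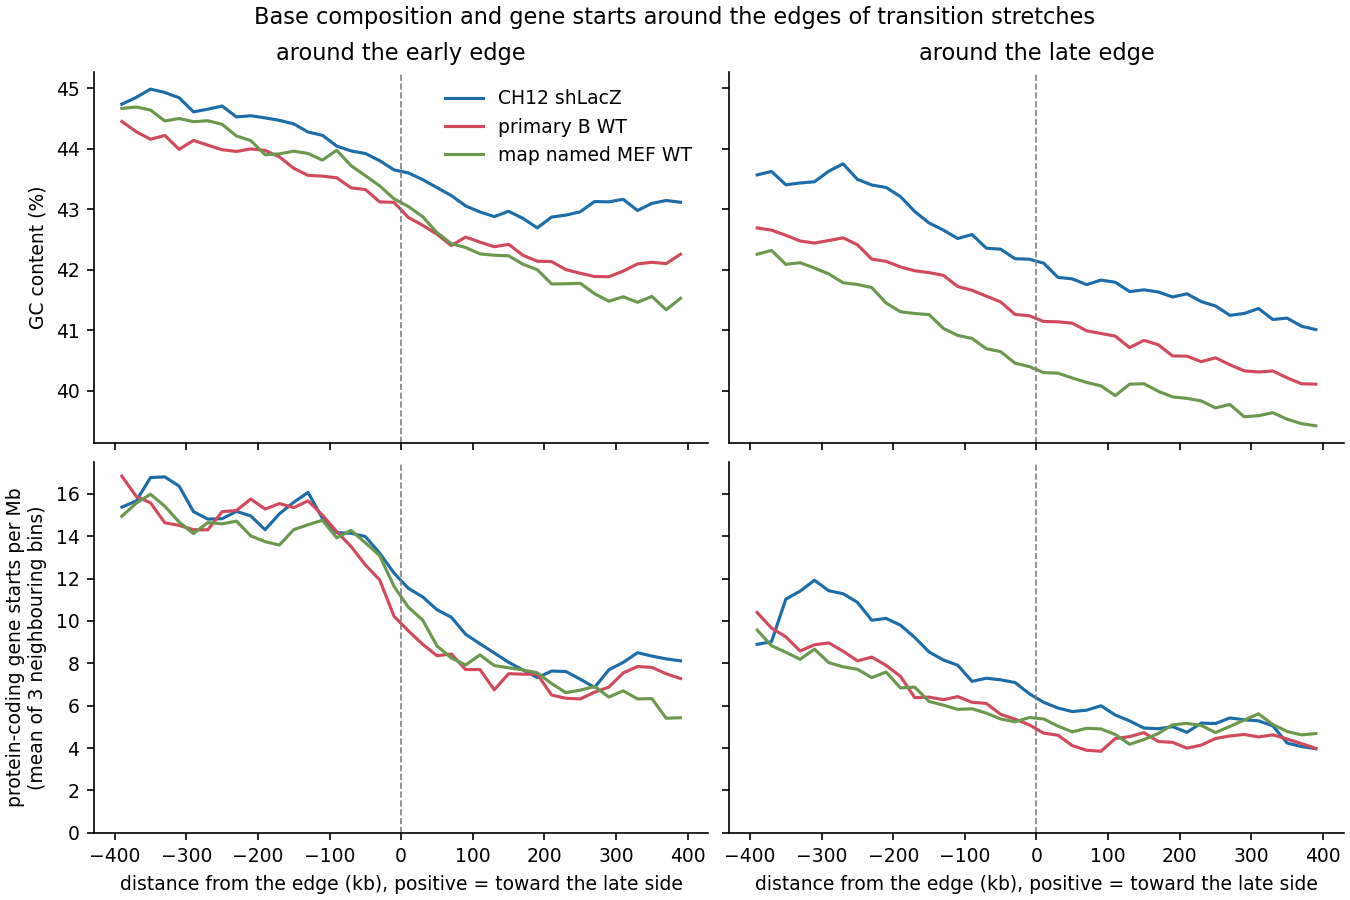
GC content (%, top) and protein-coding gene starts per Mb (bottom, mean of 3 bins) by distance in kb from the early edge (left) and late edge (right), positive toward the late side, in each map. GC content falls through both edges, from 44.7% to 41.0% in CH12, and gene starts fall most within 100 kb of the early edge. Points far from an edge rest on fewer bins than those beside it.

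Gene starts thinned out in the same direction. The stretches held 2722 starts of 21418 autosomal protein-coding genes in CH12 (12.7%), 2844 in primary B (13.3%) and 2936 in the MEF map (13.7%). Density was 8.89 starts per Mb in CH12 (8.55 to 9.23), 7.42 in primary B (7.15 to 7.70) and 6.71 in the MEF map (6.47 to 6.95). From the early to the late part it fell from 9.87 to 8.22 in CH12, from 8.08 to 6.77 in primary B and from 7.55 to 6.06 in the MEF map, and the intervals of the early and late parts did not overlap in any map. The steepest part lay around the early edge. In CH12 there were 13.5 starts per Mb in the bins centred 90 kb before the early edge and 7.26 in those 190 kb past it. A stretch held a median of 2 gene starts in both B cell maps and 3 in the MEF map, and 18.5%, 20.1% and 11.8% of stretches held none.

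Early edges lay in a protein-coding gene body more often than late edges. In CH12 these were 329 and 221 of 660 edges (49.8% and 33.5%), in primary B 47.2% and 33.2%, and in the MEF map 51.1% and 28.4%. In each map both values stood between those of bin borders inside E domains (57.9%, 56.5% and 55.0%) and inside L domains (27.6%, 24.4% and 21.1%). The median gene starting in a stretch spanned 20.6 kb in CH12, 18.1 kb in primary B and 17.4 kb in the MEF map. Genes of E domains had medians of 15.6, 16.2 and 16.9 kb, and those of L domains 8.44, 6.12 and 4.04 kb. Long genes were not particular to the stretches. Genes of M domains with an L domain on each side had longer medians in each map, at 21.7, 20.7 and 21.4 kb. Those of M domains with an E domain on each side had shorter ones, at 11.5, 13.7 and 13.4 kb.

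Genes pointed to either side about equally. They were transcribed toward the late side in 48.6% of cases in CH12 (46.8 to 50.5), 49.1% in primary B (47.3 to 50.9) and 47.1% in the MEF map (45.3 to 48.9), where the interval lay below 50%. Long genes depended on how they were placed. Of genes of at least 300 kb that started in a stretch, 45 of 65 in CH12, 74 of 102 in primary B and 68 of 118 in the MEF map pointed toward the late side. Placed by their midpoint, 25 of 59, 48 of 91 and 54 of 118 did.

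A few genes had an annotated span that contained a whole stretch, 19 in CH12, 17 in primary B and 8 in the MEF map. These genes were mostly transcribed from the late toward the early side, in 13, 14 and 6 cases. The counts are not separate, as 4 of the genes recur in 2 maps and 2 in all 3. By annotated span, the longest in CH12 were Fgfr2, a fibroblast growth factor receptor gene given 3009 kb, and Pde4d, a phosphodiesterase gene. That Fgfr2 contains the stretch chr7:139420001-139680000 rests wholly on its annotated span, chr7:137305965-140315033. Whether that span is right was not checked. In primary B the longest were Cntnap2, a neuronal adhesion gene, and Ctnna3, an alpha catenin gene. In the MEF map they were Odz2 and Auts2. Agbl4 held a stretch in CH12 and in primary B, and Cdh13, a cadherin gene, in primary B and in the MEF map. Etl4 in CH12, Anks1b in primary B and Sdk1 in the MEF map were also among the 5 longest of their map. Dlgap1, a postsynaptic scaffold gene, and Csmd2 held one in all 3 maps. Csmd2 lay at chr4:127665101-128244903 on the plus strand, and its stretch was chr4:127820001-128120000 in CH12, chr4:127840001-128120000 in primary B and chr4:127860001-128220000 in the MEF map. The gene was thus transcribed from the late toward the early side in each map, and the edges differed by at most 100 kb.

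Protein-coding genes of the B cell list were nearly absent from the stretches of the B cell maps. Of 60 genes in that list, 58 were found among autosomal protein-coding genes. Immunoglobulin segments, such as the 99 in the primary B stretch on chromosome 12, were not counted. Of 58 genes of B cell identity and activation, 0 started in a primary B stretch (upper bound 6.21%), against 13.3% of all genes, and all 58 lay in E domains. In CH12, 2 of 58 did, against 12.7% of all genes, and in the MEF map 8 of 58 did, or 13.8% against 13.7%. One of the CH12 genes was Bcl2, which encodes a survival protein. It began 151 kb inside the early edge of chr1:108460001-108900000 in CH12 and 211 kb inside that of chr1:108400001-108980000 in the MEF map, and was E in primary B. The 8 MEF genes were Bcl2, Fcer2a, Cd24a, Prdm1, Ikzf1, Bcl11a, Ccr6 and Ms4a1.

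Of 53 genes of fibroblast matrix and regulators, 14 started in a primary B stretch, or 26.4% (16.4 to 39.6) against 13.3% of all genes. In CH12, 10 did, or 18.9% (10.6 to 31.4) against 12.7%, and in the MEF map 5 did, or 9.43% (4.10 to 20.3) against 13.7%, and both of these intervals held the share of all genes. In the MEF map 39 of the 53 lay in E domains. The 5 that lay in a stretch of the same orientation in both B cell maps were Wwtr1, a transcriptional coactivator gene, Tnc, which encodes tenascin C, Pdgfra, a growth factor receptor gene, Igfbp7 and Thbs2. The first 3 and Thbs2 were E in the MEF map. Igfbp7, which encodes a secreted binding protein, was the one that lay in a stretch of the same orientation in all 3 maps. It began 37.1 kb from the early edge in CH12, 17.1 kb in primary B and 57.1 kb in the MEF map, and its stretches were chr5:77800001-78100000, chr5:77820001-78140000 and chr5:77780001-78200000. Fgfr1 lay in stretches of opposite orientation in the B cell maps, chr8:25800001-27860000 in CH12 and chr8:26520001-28560000 in primary B.

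Replication genes were close to the background. Of 57, 8 started in a stretch in CH12 (14.0%, against 12.7% of all genes). In primary B 10 did (17.5%, against 13.3%), and in the MEF map 8 did (14.0%, against 13.7%). The genes named next are thus members of a list near the share of all genes. Gins1, a subunit of the helicase complex, began in a stretch of the same orientation in all 3 maps, at 889 kb, 1329 kb and 869 kb from the early edge. Gins4, of the same complex, Atr, the checkpoint kinase, and Mcm4, a helicase subunit, did so in both B cell maps. Rif1 began in an 860 kb stretch in CH12, 212 kb from its early edge, in an M domain between 2 L domains in primary B and in an E domain in the MEF map. Mcm6, the gene depleted in other samples of the study, lay in E domains in both B cell maps and in a stretch in the MEF map.

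Gene families that lie in clusters moved into and out of stretches together, and their genes are not independent. Families were taken by symbol prefix (Olfr, Vmn, Zfp, Hist, Slc, Hox and Krt), so members under other symbols were not counted. Olfactory receptor genes started in a stretch in 118 of 1106 cases in CH12 (10.7%, against 12.7% of all genes), 304 in primary B (27.5%, against 13.3%) and 217 in the MEF map (19.6%, against 13.7%), in 22, 30 and 25 stretches. A set of 65 of them lay in a stretch of the same orientation in all 3 maps. Vomeronasal receptor genes started in a stretch in 29, 80 and 105 of 326 cases (8.90%, 24.5% and 32.2%), in 12, 17 and 15 stretches. They were not spread evenly over these. The MEF stretch chr7:20600001-24080000, with Vmn1r91, Vmn1r93 and Vmn1r94, held 86 gene starts of all kinds, the most in that map. In CH12 the shares of both families were thus below that of all genes. In CH12 most genes of both families lay in L domains, 794 of 1106 and 250 of 326. Zinc finger genes with a Zfp symbol were near the background, with 49, 53 and 41 of 361 (13.6%, 14.7% and 11.4%). So were solute carrier genes, with 40, 37 and 46 of 356 (11.2%, 10.4% and 12.9%). Histone genes started in a stretch in 12 of 67 cases in CH12 (17.9%, with an interval of 10.6 to 28.7 that held the share of all genes), 28 in primary B (41.8%) and 23 in the MEF map (34.3%), within 2, 2 and 1 stretches. Most lay in 1 stretch per map on chromosome 13, chr13:23800001-24260000 in CH12, chr13:23000001-23840000 in primary B and chr13:21420001-22320000 in the MEF map. The stretches of the B cell maps overlapped at their ends and shared 3 histone genes (Hist1h1c, Hist1h3c and Hist1h2bb), and 0 of 67 lay in a stretch of one orientation in all 3 maps.

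Hox genes, which set body position in embryos, and keratins were in stretches in CH12 and not in the other maps. In CH12, 11 of 39 Hox genes, all of the Hoxa cluster, started in 1 stretch, chr6:51620001-53100000 (28.2%, against 12.7% of all genes). In primary B and MEF 0 did, against 13.3% and 13.7% of all genes, and 30 and 39 lay in E domains. Keratin and keratin-associated genes started in CH12 stretches in 23 of 100 cases, against 12.7% of all genes. They lay in 2 stretches with their late sides toward each other, chr11:99300001-99480000 and chr11:99820001-100020000. In primary B and in the MEF map 0 of 100 did, against 13.3% and 13.7% of all genes. As 1 or 2 stretches decide these counts, they describe single loci.

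**Figure D5:**
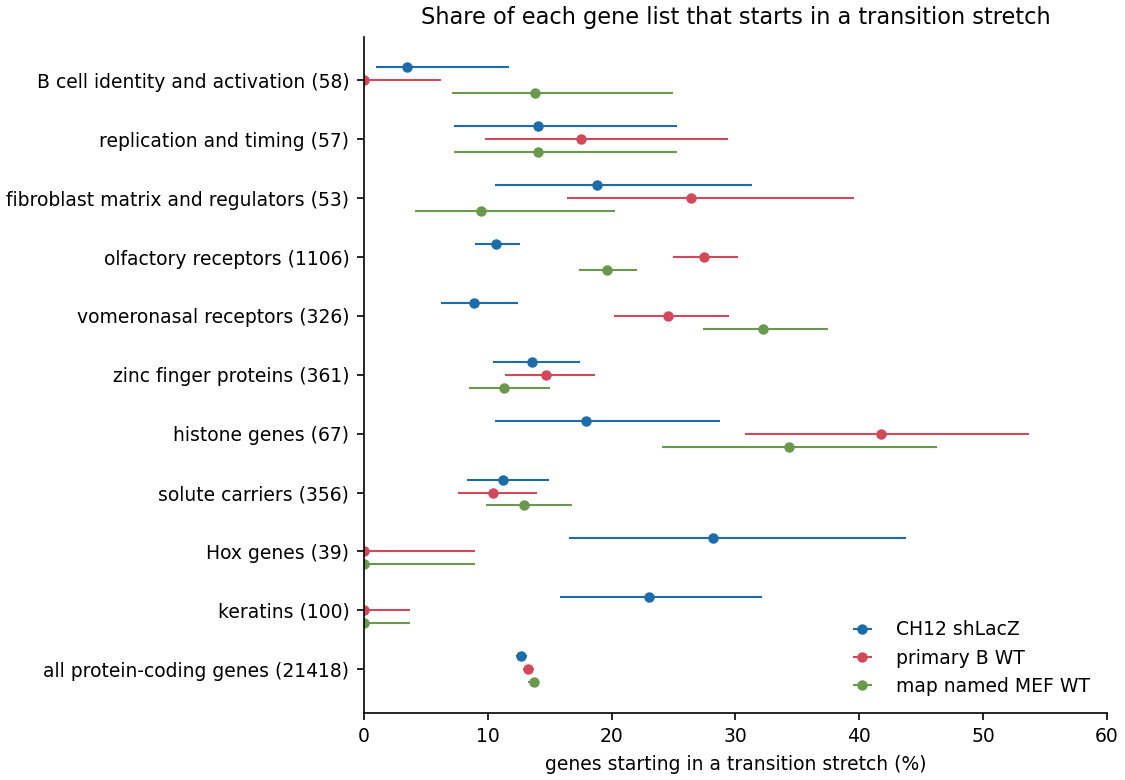
Share (%) of the genes of each list described that start in a transition stretch, with Wilson 95% intervals, in the 3 maps, the number of genes in brackets and all protein-coding genes in the last row. B cell genes lie at 0% in primary B and at 13.8% in the MEF map, and fibroblast genes at 26.4% in primary B and at 9.43% in the MEF map.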

How the data were processed

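Repli-seq reads of early and late S phase fractions were, per the labels and the methods, trimmed (Trim Galore 0.6.5), aligned to mm9 (BWA 0.7.17) and filtered (SAMtools 1.9). Replicates were merged, log2 early over late ratios were taken in 20 kb windows and smoothed over 300 kb, and hmm_bigwigs called 3 states. The state numbers, deposited as a score in column 4 of each domain file, carry no level, and E, M and L were assigned by number (2, 1 and 0 in the B cell maps, 0, 2 and 1 in the MEF map, whose processing is not given in the sources used here). Only these state scores, which the authors deposited, were used.

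Stretches, partners (50% reciprocal overlap, same orientation), edges (100 kb) and 3 equal parts of each stretch were computed in Python 3.11.15 with pandas 2.3.3 and SciPy 1.17.1, and tested on simulated maps. The last domain ended at the NCBIM37 chromosome end on 20 of 20 chromosomes in each map. Protein-coding genes (21418 autosomal) came from GENCODE vM1. The primary B map leaves out the first 3 Mb on 19 of 20 chromosomes. Alternatives changed the overlap, edges, neighbours, genes and bins. Genes eligible to be named were those of the lists starting in stretches shared by the maps or, for B cell genes, in a stretch of a B cell map, up to 6 of the longest genes of the longest and shortest stretches, the genes of the best shared and furthest stretches, the 5 longest genes containing a stretch in each map, and Rif1 and Mcm6, of which the text names a selection. Csmd2, which contained a stretch in all 3 maps, Fgfr1 and the B cell genes in MEF stretches alone fall outside this rule and were named after their values were seen. 1 eligible gene is not reported here. Members and lists were chosen with earlier results of these data known. Intervals cover counting error only, at 95%.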

Additional observations from a re-analysis of the deposited data

How the results depend on the processing

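No paired analysis was possible because the maps hold pooled replicates, which also prevented leaving out any of them. Of 307 values under other settings, 223 stayed within their interval or count, 84 moved and 0 changed sign. A change of sign could be scored only for edge displacements and GC differences whose main interval excluded 0, so most values could not show one. Median lengths stayed at 300, 380 and 540 kb in CH12, primary B and MEF in every setting tried for them. Numbers of stretches stayed within 1.5 times, at 694, 725 and 493 with the X chromosome, 660, 682 and 493 with neighbours up to 40 kb away, 660, 679 and 492 for stretches of at least 100 kb, and 575, 623 and 469 for neighbours of at least 200 kb. The share with partners depended on the overlap. With any overlap, CH12 and primary B had partners in 70.9% and 68.8% of stretches, CH12 and MEF in 43.2% and 56.8%, and primary B and MEF in 55.6% and 74.6%. At 80% these fell to 8.64% and 8.38%, 3.33% and 4.46%, and 7.5% and 10.3%. Partners in both other maps went from 9.24% of CH12 stretches to 38.5% and 0.455%. The median late edge displacement from CH12 to primary B was 40 kb at 80% overlap and 140 kb for sole partners at any overlap, and from CH12 to MEF 30 and 210 kb. From primary B to MEF it was 100 kb for sole partners. These medians depend on the overlap because a displaced edge lowers it. With all annotated genes, 14.5% started in a primary B stretch. The early part was higher in GC in 81.6% of MEF stretches for the first and last 100 kb, and in 66.4% of CH12 stretches when those under 300 kb were left out. The share of genes of at least 300 kb that pointed toward the late side was 69.2%, 72.5% and 57.6% by start in CH12, primary B and MEF, 42.4%, 52.7% and 45.8% by midpoint, and 46.5%, 51.6% and 47.9% over genes touching 1 stretch. These last 2 settings were chosen after the data were seen. Depth and replicate error are unknown, so no difference between maps was tested.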
